A study of Mus musculus with 9 samples.

Results

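Gene expression in the hippocampus of SAMP8 mice given TFQA was compared with that of SAMP8 mice given water, on 3 Clariom S Mouse arrays per group, 6 of the 9 arrays of the series. Every transcript with 1 gene symbol in the platform annotation was taken, which gave 19572 of 22206 transcripts and 19505 distinct genes. SAMP8, the senescence-accelerated mouse prone 8, is an inbred strain that shows early memory loss, and both groups were SAMP8 males aged 6 months. TFQA is 3,4,5-tri-feruloylquinic acid, a synthetic ester of quinic acid, and was given orally at 1 mg/kg once daily for 37 days, while the other group received water only. Per the methods TFQA was prepared in ethanol, and no ethanol control is named. The 3 remaining arrays came from males of the related strain SAMR1 given water. They entered the estimate of the spread but not the difference, and serve as a reference where a value is set against all 9 arrays. According to the methods the RNA came from the hippocampus, while in the labels the tissue is brain and the cell type neural stem cells, and no array of another tissue was at hand for a direct check. Neurod6 and Prox1, transcription factors of hippocampal pyramidal and granule neurons, read 13.68 to 15.06 and 10.58 to 11.94 on the log2 scale over the 9 arrays, and Nes, the intermediate filament of neural progenitors, read 5.09 to 6.07. Whether the arrays of a group came from separate mice is not stated, and the p-values then reflect only how these samples vary, part of which may be technical.

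The hippocampus holds granule neurons in the dentate gyrus and pyramidal neurons in the CA fields, which excite each other through glutamate and are restrained by GABA interneurons. When these neurons fire, a set of immediate early genes such as Fos, Arc and Nr4a1 is transcribed within minutes, in part through the factor CREB, which binds cAMP response elements in their promoters. The striatum lies close by and consists mostly of medium spiny neurons, which express Drd1, Drd2, Penk and Tac1, while the choroid plexus lines the ventricle beside the hippocampus and makes cerebrospinal fluid.

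Between SAMP8 TFQA and SAMP8 water limma called 0 transcripts at an adjusted p under 0.05, and the smallest was 0.488. The differences below are therefore described against the study's own criterion, which asks for a fold change over 1.1 and a p under 0.05 without adjustment, and "past the threshold" refers to that. Of the 19572 named transcripts, 673 were higher after TFQA (3.44%) and 728 lower (3.72%), in all 1401 or 7.16%. The fold criterion removed none, because 1580 transcripts, named or not, were at an unadjusted p under 0.05 and the same 1580 were past the threshold, where 1110 would be at that p if no transcript differed. Of the 1401, 261 differed by more than 1.6-fold. The 3 TFQA arrays lay entirely above or below the 3 water arrays in 1026 of them, and in 2334 of all named transcripts, or 11.9%.

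SAMP8 TFQA replicate 2 stood apart from the other 8 arrays. In 47 named transcripts it lay more than 1 log2 unit above all others, against 1 to 7 transcripts in each other array, and the 47 included Drd1, Drd2, Penk, Ppp1r1b, Pde10a, Adcy5 and Rgs9 of striatal medium spiny neurons. Penk, the enkephalin precursor, read 11.42, 17.22 and 11.88 in the TFQA arrays and 11.23, 12.08 and 11.13 in the SAMP8 water arrays. Drd1, a dopamine receptor, read 5.61, 8.93 and 6.14 after TFQA and 5.61, 6.26 and 5.69 after water. Averaged over 26 striatal markers, the deviation from the mean of the 9 arrays was -0.21, 1.95 and -0.35 in the TFQA arrays and lay between -0.50 and -0.16 in the SAMP8 water arrays. The TFQA arrays other than replicate 2 were thus at -0.21 and -0.35, against -0.16 for the highest SAMP8 water array. Of the 26 markers 22 lay above 0 (84.6%, against 50.8% of all genes) and 4 were higher past the threshold (15.4%, against 3.44%). With SAMP8 TFQA replicate 1 or 3 left out, 12 were higher, as were 702 and 802 of the 19505 genes. Without replicate 2, 15 of the markers lay above 0, as did 9841 of the 19505 genes. In that fit 0 were higher and 2 lower, against 3.55% and 3.79% of all named transcripts.

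**Figure D1:**
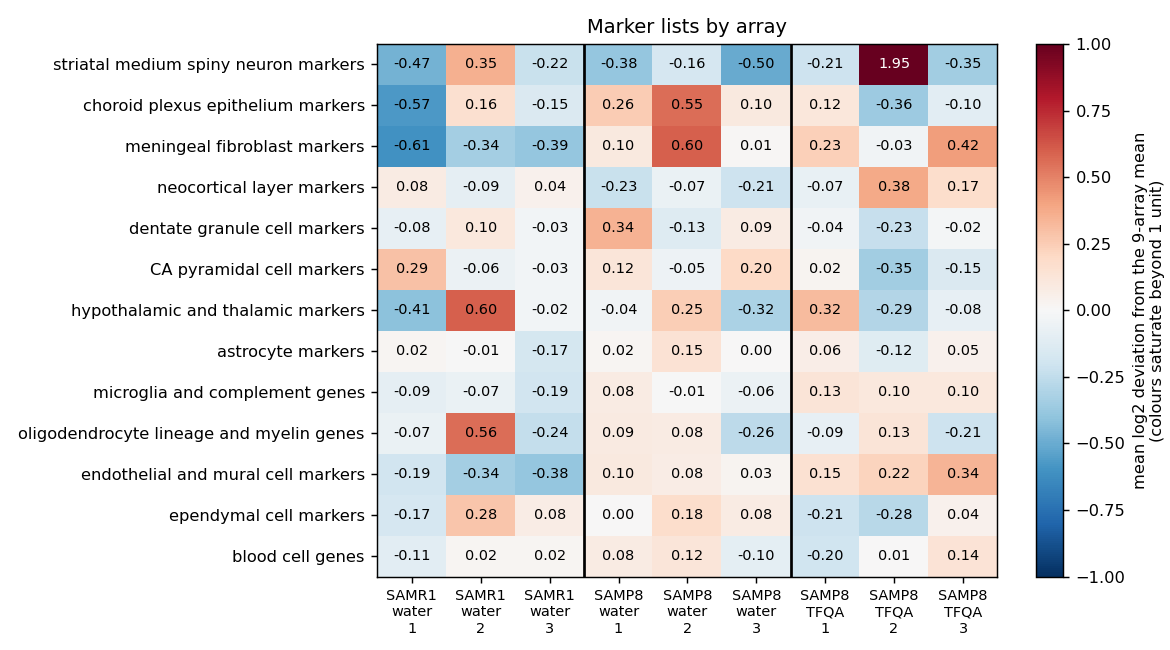
Mean deviation (log2) of each of 13 marker lists from its mean over the 9 arrays, with 1 column per array and the groups divided by black lines. The striatal list reads 1.95 in SAMP8 TFQA replicate 2 and at most 0.35 in any other array, and the choroid plexus list reads 0.26, 0.55 and 0.10 in the SAMP8 water arrays.

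Without SAMP8 TFQA replicate 2, 868 of the 1401 transcripts (62.0%) stayed past the threshold in the same direction. Of these, 397 were higher and 471 lower, while 276 higher and 257 lower ones were lost and 569 others were gained. In that fit of 8 arrays, 7.34% of the named transcripts were past the threshold (3.55% higher and 3.79% lower) and limma called 0 at an adjusted p under 0.05, where the smallest was 0.432. A loss of this size was seen with other arrays as well. Leaving out another SAMP8 array in its place kept between 783 transcripts, without SAMP8 water replicate 1, and 943, without SAMP8 TFQA replicate 3. With an array of SAMR1 left out, 1247 to 1266 stayed. The replicate was the highest of the 6 SAMP8 arrays in 177 of the 276 higher transcripts that were lost and in 82 of the 397 that stayed. Over all 19572 named transcripts it was the highest in 3518. The lost transcripts were picked by leaving it out, so an excess among them follows from that choice. Past the threshold in all 6 fits that leave out 1 SAMP8 array were 355 named transcripts, 167 higher and 188 lower, a count chosen after the data had been seen. Of these, 41.4% were among the 40% dimmest transcripts of the table, against 39.0% of all named transcripts. The share was 28.7% for the higher and 52.7% for the lower ones.

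**Figure D2:**
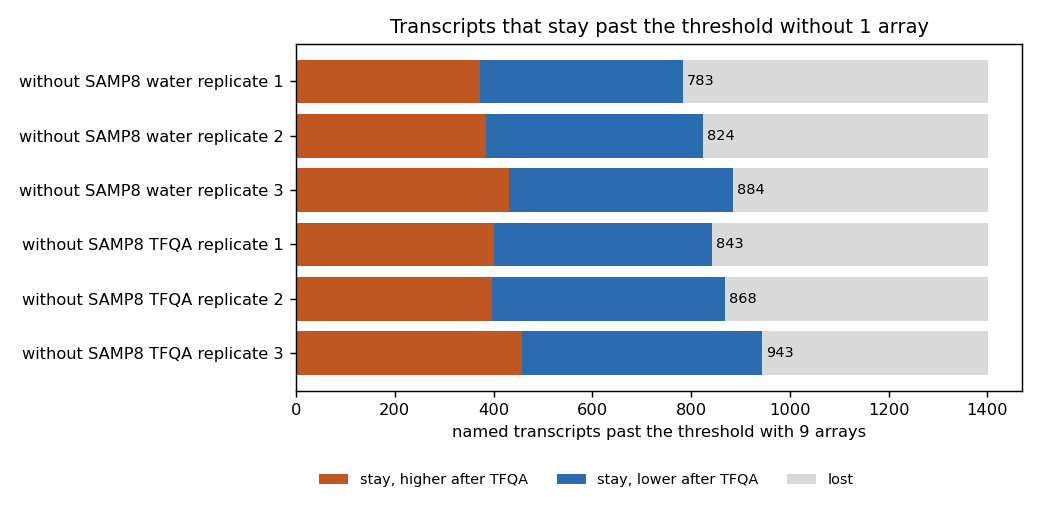
Named transcripts past the threshold with 9 arrays (1401, horizontal axis) that stay past it when 1 SAMP8 array is left out, split by direction, with the number that stay beside each bar. The bar without SAMP8 TFQA replicate 2 (868) lies between those of the other arrays, which run from 783 to 943.

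Among the transcripts that stayed, the largest positive differences with groups that did not overlap were those of Cdkn1a, Glra3, Sema3a, Mef2c and Klf5. Cdkn1a, the cyclin-dependent kinase inhibitor p21, read 5.50, 5.96 and 6.07 in SAMP8 water and 6.22, 7.84 and 7.94 after TFQA. The lowest TFQA array lay just above the highest water array, and the log2 difference was 1.49 (SE 0.43) with and 1.24 (SE 0.47) without replicate 2. Glra3, a glycine receptor subunit on chromosome 8 from 55940418 to 56130070 of GRCm38.p6, read 6.59, 7.81 and 6.78 after water and 8.37, 8.20 and 8.85 after TFQA. Replicate 2 was the lowest of these TFQA values, and the difference was 1.41 (SE 0.46) with it and 1.55 (SE 0.53) without it. The SAMR1 arrays read 7.28, 6.74 and 8.85 for Glra3, so that 1 of them equalled the highest TFQA array. Sema3a, a secreted repellent of growing axons, read 5.63, 6.29 and 5.25 after water and 6.99, 7.32 and 6.91 after TFQA. All 3 TFQA arrays lay close together, at a mean of 7.07 ± 0.22 (SD, n = 3), and the difference of 1.35 (SE 0.26) was 1.23 without replicate 2. Plxnd1, a plexin that takes part in semaphorin signaling, read 6.54, 6.90 and 6.14 after water and 7.24, 7.88 and 7.96 after TFQA, a difference of 1.17 (SE 0.29).

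The transcription factors Mef2c, Klf5 and Cux2 were also higher. Mef2c, a regulator of neuronal differentiation and synapse number, read 11.73, 12.63 and 11.73 after water and 12.76, 13.94 and 13.32 after TFQA. Replicate 2 was the highest array, and without it the difference went from 1.31 (SE 0.34) to 1.01 (SE 0.34). Cux2, which marks upper neocortical layers, read 8.16, 8.86 and 8.37 after water and 9.39, 9.69 and 9.30 after TFQA, with a difference of 1.00 (SE 0.20) that was 0.88 (SE 0.21) without replicate 2. Klf5, a zinc finger factor, had 1 water array far below the others. It read 6.63, 8.32 and 7.95 after water, with replicate 1 more than 1 log2 unit below all other 8 arrays, and 8.73, 9.47 and 8.52 after TFQA.

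Genes of membrane excitability made up another part of these 15. Dpp10, an auxiliary subunit of A-type potassium channels, read 9.27, 10.68 and 10.19 after water and 11.04, 11.39 and 11.25 after TFQA, a difference of 1.18 (SE 0.29). Kcnj2, an inward rectifier potassium channel, read 5.17, 5.52 and 5.18 after water and 6.34, 6.54 and 5.80 after TFQA, with a difference of 0.94 (SE 0.22). Gabra3, a GABA-A receptor subunit, read 9.96, 10.14 and 9.73 after water and 10.64, 10.80 and 11.05 after TFQA, and its difference was 0.89 (SE 0.25) with and 0.90 (SE 0.29) without replicate 2. In each of the 3 genes the groups were separate. Arpp21, a phosphoprotein abundant in striatum and cortex, Necab3, a calcium-binding protein, and Cdh7, a cadherin, stayed past the threshold but were highest in replicate 2. Arpp21 read 13.78, 15.38 and 14.13 after TFQA and at most 13.39 after water, and its difference of 1.24 was 0.77 without that array. The remaining 2 of the 15, the olfactory receptor gene Olfr194 and the muscle myosin light chain Mylpf, were, like Kcnj2, among the dimmest 40% of transcripts and differed by 0.98 and 0.88.

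**Figure D3:**
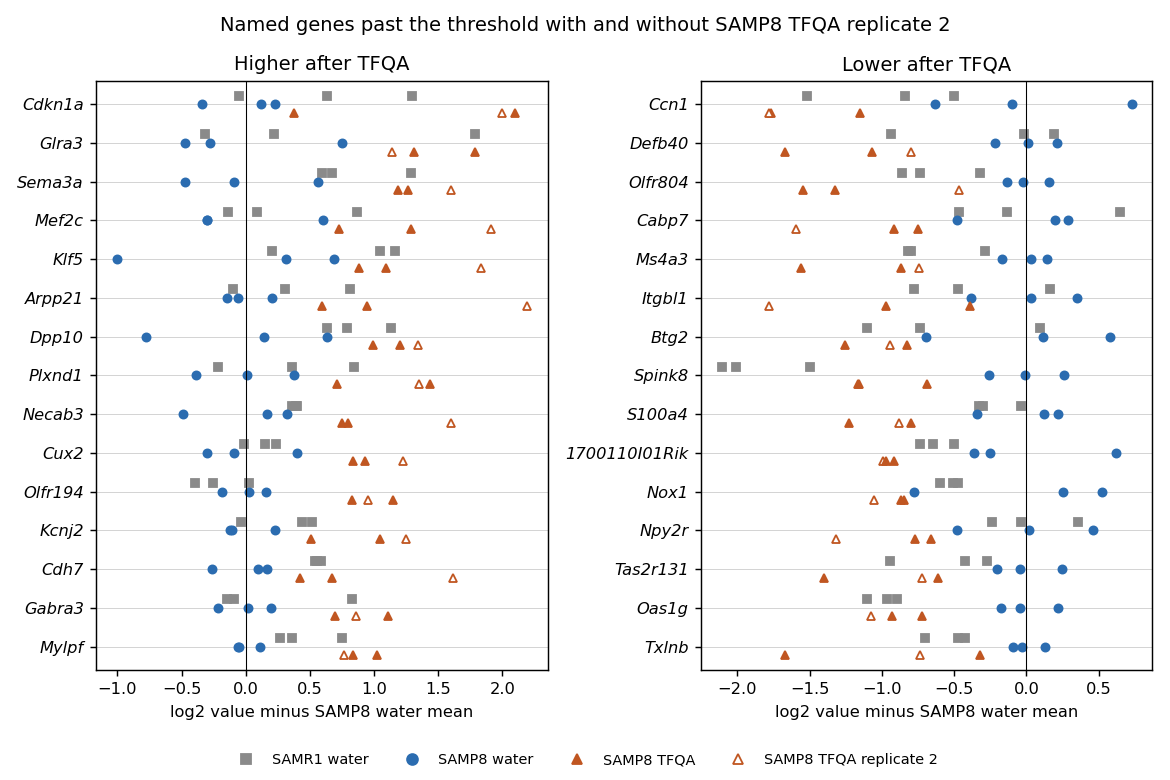
Value of each array minus the SAMP8 water mean (log2, horizontal axis) for the 15 genes with the largest positive (left) and the 15 with the largest negative differences (right) that stayed past the threshold. Circles are SAMP8 water, triangles SAMP8 TFQA (replicate 2 open) and squares SAMR1 water, and in every gene all TFQA arrays lie on 1 side of the SAMP8 water arrays, a condition of the choice.

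In the other direction, Ccn1 had the largest difference. Ccn1, a secreted matrix protein and an immediate early gene, lies on chromosome 3 and read 8.98, 9.81 and 8.45 after water and 7.31, 7.30 and 7.93 after TFQA. The difference was -1.57 (SE 0.34) with and -1.46 (SE 0.39) without replicate 2. Btg2, an antiproliferative immediate early gene, read 8.96, 8.50 and 7.69 after water and 7.13, 7.44 and 7.56 after TFQA, a difference of -1.01 (SE 0.33). Here the groups were separated by the narrow gap between 7.69 and 7.56, and without SAMP8 water replicate 1 Btg2 was no longer past the threshold, alone among the 30 genes drawn with the stayers.

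Spink8, Cabp7 and Npy2r, genes of hippocampal neurons, were lower as well, as were S100a4, Itgbl1 and Oas1g. Spink8, a protease inhibitor gene that marks CA pyramidal neurons, read 10.07, 9.82 and 10.34 after water and 9.39, 8.91 and 8.92 after TFQA, means of 10.08 and 9.07, and differed by -0.92 (SE 0.24) without replicate 2. The SAMR1 arrays were lower still, at 7.97 to 8.58. Cabp7, a calcium-binding protein of granule neurons, read 12.98, 12.21 and 12.89 after water and 11.94, 11.10 and 11.78 after TFQA. Its lowest value was in replicate 2, and the difference went from -1.09 (SE 0.31) to -0.83 (SE 0.32) without it. Npy2r, a neuropeptide Y receptor that restrains transmitter release, read 9.22, 8.72 and 9.66 after water and 8.43, 7.88 and 8.54 after TFQA, with a difference of -0.92 (SE 0.26). S100a4, a calcium-binding protein, read 6.92, 7.48 and 7.38 after water and 6.03, 6.38 and 6.46 after TFQA, and differed by -0.97 (SE 0.19). Itgbl1, a secreted protein related to integrins, differed by -1.05 with and -0.68 without replicate 2, in which it was lowest. Oas1g, an interferon-induced oligoadenylate synthetase, read 5.37, 5.63 and 5.24 after water and 4.69, 4.34 and 4.48 after TFQA, with a difference of -0.91 (SE 0.16). The other 7 of the 15, Defb40, Olfr804, Ms4a3, 1700110I01Rik, Nox1, Tas2r131 and Txlnb, belonged, as did Oas1g, to the dimmest 40% of transcripts and differed by between -1.18 and -0.91. Among all lower transcripts past the threshold 52.7% were that dim, against 32.4% of the higher ones and 39.0% of all named transcripts.

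The 8 largest positive differences that were lost without SAMP8 TFQA replicate 2 were those of Tac1, Abi3bp, Rxrg, Arhgap10, Meis2, Cobl, Gpr52 and Gpr6. Of these, 4 (Tac1, Rxrg, Meis2 and Gpr6) were on the list of striatal markers. Tac1, the precursor of substance P, read 8.89, 10.06 and 9.08 after water and 10.15, 13.90 and 10.21 after TFQA. Its groups did not overlap in either fit, yet the difference went from 2.08 (SE 0.80) to 0.84 (SE 0.41). Rxrg, a retinoid X receptor, read 5.76, 5.53 and 6.32 after water and 6.03, 9.04 and 6.50 after TFQA, and Gpr6, a receptor of striatopallidal neurons, read 6.33, 8.15 and 6.24 after TFQA against 5.82 to 6.07 after water. In both, replicate 2 was far above the other TFQA arrays. Meis2, a homeobox factor, differed in that replicate 1 was high as well, with 12.54, 13.28 and 11.50 after TFQA against 10.79, 11.56 and 11.74 after water. Abi3bp, a matrix protein, read 5.13, 7.30 and 4.55 after TFQA, and Cobl, an actin nucleator, 10.51, 12.24 and 10.98.

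Among the 8 largest negative differences that were lost, Best3, an anion channel, and Slc9a4, a sodium-hydrogen exchanger, lay more than 1 log2 unit lower in replicate 2 than in every other array. Best3 read 5.89, 4.35 and 6.13 after TFQA and 6.02, 6.57 and 6.95 after water. Kl, the anti-aging factor klotho, which the choroid plexus makes in quantity, read 10.16, 8.88 and 9.39 after TFQA and 10.37, 10.57 and 10.09 after water. TFQA replicate 1 lay within the range of the water arrays, and the difference of -0.87 (SE 0.37) was -0.57 (SE 0.38) without replicate 2. Lum, a proteoglycan of meningeal fibroblasts, and Ecrg4, a secreted protein of the choroid plexus, differed by -0.95 and -0.84 with and by -0.65 each without it. Teddm3 differed about as much without replicate 2 (-0.96, SE 0.45) as with it (-0.94, SE 0.38), and lost the threshold with a larger standard error. For Gucy2f, a retinal guanylate cyclase, and Cabyr, a calcium-binding sperm protein, the differences were -0.68 and -0.71 without it.

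**Figure D4:**
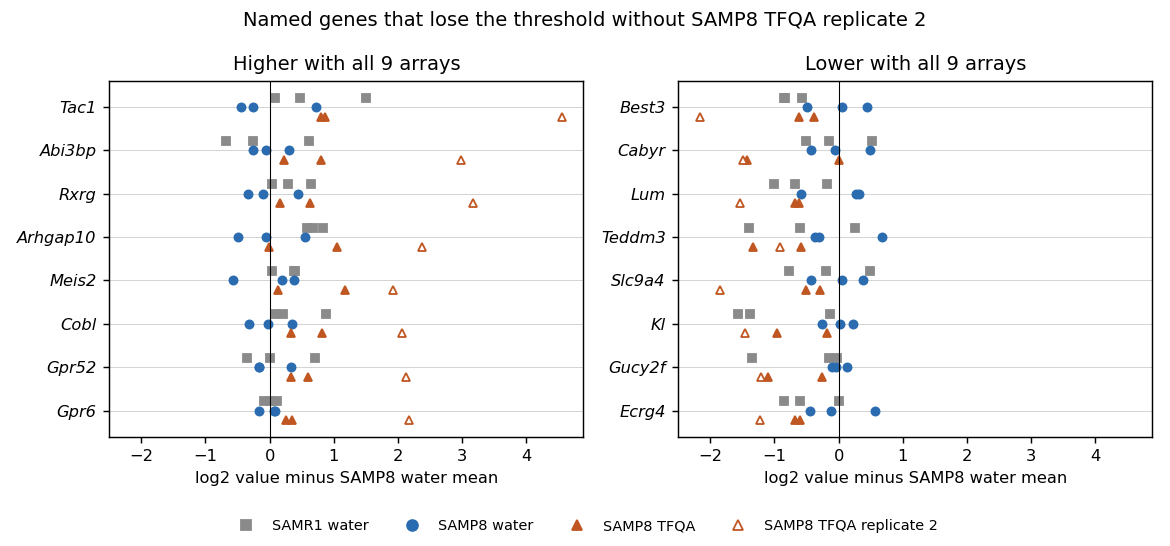
Value of each array minus the SAMP8 water mean (log2, horizontal axis) for the 8 largest positive (left) and 8 largest negative differences (right) that lost the threshold without SAMP8 TFQA replicate 2, with symbols as in the plot of genes that stayed. The open triangle lies far to the right in Tac1 and Rxrg and far to the left in Best3, while in Teddm3 it lies between the other TFQA arrays.

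Among the differences gained without replicate 2, that array was the lowest of the 6 SAMP8 arrays in 67 of the 298 higher ones. In 57 of the 271 lower ones it was the highest. Over all 19572 named transcripts it was the lowest in 3292 and the highest in 3518. The gained transcripts, too, were picked by leaving replicate 2 out, so an excess among them follows from that choice. Ide, the protease that degrades insulin and amyloid beta, read 10.31, 8.09 and 10.56 after TFQA and 8.31, 8.23 and 10.08 after water. Values near 8 and near 10 thus occurred in both groups, and the difference was 0.78 (SE 0.59) with and 1.56 (SE 0.45) without replicate 2. Npas4, an activity-dependent factor, read 5.71, 7.42 and 5.77 after TFQA and 8.04, 7.15 and 5.70 after water, so that the groups overlapped although the difference without replicate 2 was -1.22 (SE 0.49). Cbln1, a synaptic organizer, Tbx22, a T-box factor, and Tex30 differed by 1.06, 1.01 and 0.95 without it, and the olfactory receptor gene Olfr1218 by -1.20. Vcpip1, a deubiquitinase, was more than 1 log2 unit above every other array in TFQA replicate 1 alone (12.48, against 10.93 and 10.81). Tmem181a, Dynlt1a and Dynlt1c, neighbors on chromosome 17, owed their place to TFQA replicate 3. Tmem181a read 12.95, 13.04 and 8.89 after TFQA and 12.58 to 12.91 after water, and without replicate 3 the difference of -1.14 became 0.23.

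Immediate early genes were the list with the largest share of members lower past the threshold after the choroid plexus markers. Of 48 measured members, 13 were lower (27.1%, where 3.72% of all genes were) and 2 higher, and the median difference was -0.20, against 0.00 over all genes. Without SAMP8 TFQA replicate 2, 13 were again lower, 11 of them from the first count, and the median was -0.23. The count rested in part on SAMP8 water replicate 1, without which 5 were lower. Fos, which pairs with Jun proteins to form AP-1, read 8.12, 8.27 and 7.48 after water and 7.03, 7.36 and 7.09 after TFQA, a difference of -0.80 (SE 0.21). The groups were separate, with water replicate 3 nearest to the TFQA arrays. Junb, its partner, read 9.32, 9.17 and 8.62 after water and 7.94, 8.70 and 8.01 after TFQA. Nr4a1, an orphan nuclear receptor, read 10.44, 10.34 and 9.93 after water and 8.69, 9.97 and 9.29 after TFQA. In Junb and Nr4a1, TFQA replicate 2 overlapped water replicate 3, and without replicate 2 the differences went from -0.82 (SE 0.23) to -1.06 (SE 0.21) and from -0.92 (SE 0.27) to -1.25 (SE 0.23).

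Replicate 2 lay closest to the water arrays in other members, too. Arc, which controls AMPA receptor endocytosis, read 9.83, 9.35 and 8.48 after water and 7.0, 9.18 and 7.63 after TFQA. Its difference was -1.28 with and -1.91 (SE 0.34) without replicate 2, and it was not past the threshold without SAMP8 water replicate 1, SAMP8 TFQA replicate 1 or SAMP8 TFQA replicate 3. Dusp1, a MAP kinase phosphatase, read 11.44, 11.38 and 9.99 after water and 9.32, 10.72 and 9.87 after TFQA. The groups overlapped, and Dusp1 was past the threshold in 2 of the 6 fits that leave out 1 SAMP8 array, those without SAMP8 water replicate 3 or SAMP8 TFQA replicate 2. The remaining lower members, Sik1, Nr4a3, Gadd45b, Jun, Ier2 and Fosl2, differed by between -0.65 and -0.38, and each was lost in at least 1 of these 6 fits. Of the 2 higher ones, Klf6, a zinc finger factor, read 8.01, 8.17 and 7.67 after water and 8.56, 8.76 and 8.49 after TFQA, and Homer1, a postsynaptic scaffold, differed by 0.59 and lost the threshold without replicate 2. Averaged over the 48 members, the deviation was 0.26, 0.14 and -0.08 in the water arrays and -0.33, 0.06 and -0.14 in the TFQA arrays, so that the groups overlapped.

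**Figure D5:**
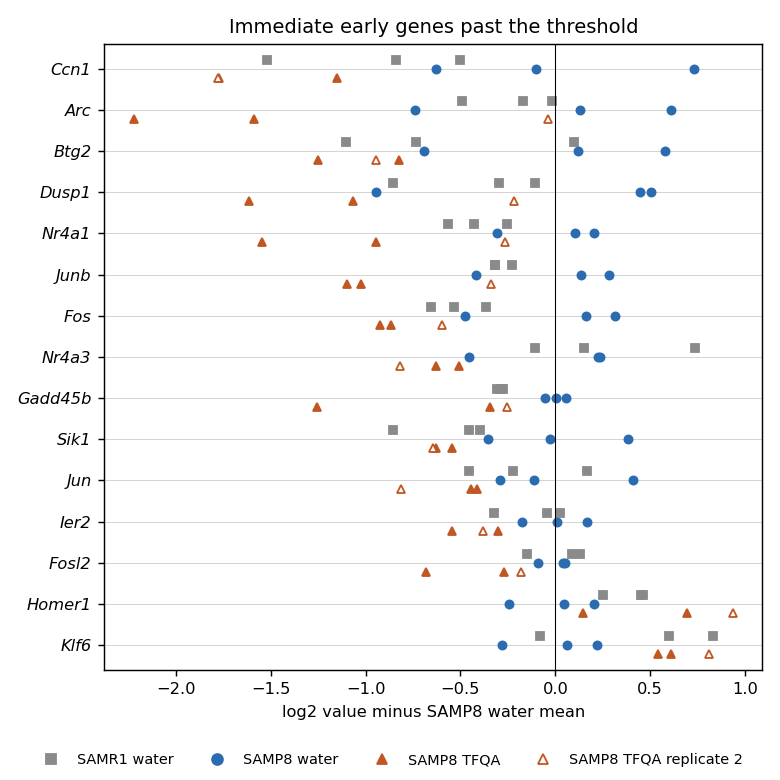
Value of each array minus the SAMP8 water mean (log2, horizontal axis) for the 15 immediate early genes past the threshold, ordered by their difference, with symbols as in the plot of genes that stayed. In Arc, Dusp1, Nr4a1 and Junb the open triangle (TFQA replicate 2) lies to the right of the other TFQA arrays, while in Ccn1 and Sik1 it does not.

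The promoters of 6 of these genes are shown because immediate early genes are known targets of CREB. The sequences are RefSeq windows of GRCm38.p6 from 250 bases before to 50 after the start of transcription, and capitals mark the core of the cAMP response element, TGACG, on either strand (CGTCA when it lies on the other strand). The full palindromic element, TGACGTCA, contains the core on both strands. The windows lie at chr12:85473640-85473939 (Fos, plus strand), chr8:84978699-84978998 (Junb, minus strand), chr15:101266596-101266895 (Nr4a1, plus strand), chr1:134079106-134079405 (Btg2, minus strand), chr17:26508423-26508722 (Dusp1, minus strand) and chr3:145649936-145650235 (Ccn1, minus strand).
Fos: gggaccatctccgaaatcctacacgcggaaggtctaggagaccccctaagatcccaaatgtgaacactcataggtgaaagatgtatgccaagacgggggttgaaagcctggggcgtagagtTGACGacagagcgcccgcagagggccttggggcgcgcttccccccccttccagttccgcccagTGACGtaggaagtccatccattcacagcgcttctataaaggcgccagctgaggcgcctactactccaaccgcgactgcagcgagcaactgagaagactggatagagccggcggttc
Junb: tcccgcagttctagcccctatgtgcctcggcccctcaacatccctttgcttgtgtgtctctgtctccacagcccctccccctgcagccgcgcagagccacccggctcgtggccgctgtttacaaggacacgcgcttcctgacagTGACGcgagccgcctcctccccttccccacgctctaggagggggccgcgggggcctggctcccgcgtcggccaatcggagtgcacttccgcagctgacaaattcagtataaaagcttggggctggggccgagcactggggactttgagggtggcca
Nr4a1: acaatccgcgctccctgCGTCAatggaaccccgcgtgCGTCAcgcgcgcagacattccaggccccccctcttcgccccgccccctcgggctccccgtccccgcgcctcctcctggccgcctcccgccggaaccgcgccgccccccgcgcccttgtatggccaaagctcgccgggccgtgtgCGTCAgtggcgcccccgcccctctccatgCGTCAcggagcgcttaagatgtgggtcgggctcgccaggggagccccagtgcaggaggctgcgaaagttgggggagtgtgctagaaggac
Btg2: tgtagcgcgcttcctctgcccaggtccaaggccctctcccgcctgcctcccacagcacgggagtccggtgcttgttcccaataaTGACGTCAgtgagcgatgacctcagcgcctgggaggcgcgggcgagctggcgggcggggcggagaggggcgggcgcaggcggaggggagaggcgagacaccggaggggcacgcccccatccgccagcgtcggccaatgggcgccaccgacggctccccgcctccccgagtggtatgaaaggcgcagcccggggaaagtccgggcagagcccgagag
Dusp1: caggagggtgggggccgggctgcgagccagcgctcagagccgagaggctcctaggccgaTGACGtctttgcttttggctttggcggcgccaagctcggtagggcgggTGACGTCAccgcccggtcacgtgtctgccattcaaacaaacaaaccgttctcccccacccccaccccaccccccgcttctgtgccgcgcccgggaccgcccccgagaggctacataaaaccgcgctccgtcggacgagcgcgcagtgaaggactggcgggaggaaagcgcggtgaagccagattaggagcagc
Ccn1: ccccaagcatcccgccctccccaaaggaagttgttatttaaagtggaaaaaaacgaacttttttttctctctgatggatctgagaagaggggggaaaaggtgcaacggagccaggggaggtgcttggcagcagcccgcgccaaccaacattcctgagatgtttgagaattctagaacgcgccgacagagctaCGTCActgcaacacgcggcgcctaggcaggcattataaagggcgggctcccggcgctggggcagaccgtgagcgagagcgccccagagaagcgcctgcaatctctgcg

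The core was present in 7 of the 10 lower immediate early genes that had a window (Fos, Junb, Nr4a1, Nr4a3, Btg2, Dusp1 and Ccn1) and not found in the windows of Jun, Fosl2 and Gadd45b. Over the whole table it occurred in 20.8% of 32851 windows and in at least 1 window of 23% of 27025 genes. Nr4a1 carried 4 copies and Fos 2. The full element was found in Btg2 and Dusp1, in 1.79% of all windows and in 2.03% of all genes. All windows shown above carry the core. Immediate early genes that were not lower were not compared, so the share does not set the lower ones apart from the rest of their list. These are matches of letters, and whether a factor binds there was not measured.

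Potassium channels set the excitability of neurons, and 9 of their genes were higher. Of 57 measured members 40 lay above 0, as did 50.8% of all named transcripts, the 9 past the threshold were all higher (15.8%, against 3.44% of all genes), and the median was 0.13. Without SAMP8 TFQA replicate 2, the array with the highest value of this list (mean deviation 0.25, against -0.10 to 0.01 in the other SAMP8 arrays), 32 lay above 0, 5 were higher and 1 lower and the median was 0.04. Leaving out another SAMP8 array gave 5 (SAMP8 water replicate 1) to 11 higher members (SAMP8 TFQA replicate 1 or 3). The 5 that stayed were Dpp10, Kcnj2, Kcnn3, Kcnf1 and Kcnd1. Kcnn3, a calcium-activated channel, read 6.32, 6.84 and 7.20 after water and 7.69, 7.30 and 7.47 after TFQA, and Kcnf1, a modifier of Kv2 channels, read 7.39, 7.43 and 7.39 after water and 7.72, 8.10 and 8.37 after TFQA. The differences were 0.70 (SE 0.22) and 0.66 (SE 0.19).

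At glutamate synapses 7 of 53 members were higher (13.2%, against 3.44% of all genes) and 2 lower (3.77%, against 3.72%), with a median of 0.02. Without SAMP8 TFQA replicate 2, 4 were higher and 0 lower. Dlg1, a scaffold that binds glutamate receptors, read 9.92, 10.33 and 10.43 after water and 11.08, 11.00 and 10.87 after TFQA, a difference of 0.76 (SE 0.18) that was 0.75 without replicate 2. Cacng3, an auxiliary subunit of AMPA receptors, read 12.62, 12.91 and 12.61 after water and 13.24, 13.74 and 13.52 after TFQA. Grik3, a kainate receptor subunit, read 9.05, 8.90 and 8.84 after water and 9.27, 10.42 and 9.49 after TFQA, with replicate 2 highest. These 3 genes stayed past the threshold, while the count of higher members ran from 3 without SAMP8 water replicate 2 to 9 without SAMP8 TFQA replicate 3. Gria1 and Lrrtm1, the lower ones at -0.43 and -0.42, did not.

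In the list of GABA and glycine synapses and interneurons 27 of 38 members lay above 0. Past the threshold 5 were higher (13.2%, against 3.44% of all genes) and 0 lower (against 3.72%), and 3 (Glra3, Gabra3 and Reln) stayed. Reln, secreted by a class of interneurons, read 7.78, 7.80 and 7.91 after water and 8.08, 8.29 and 8.70 after TFQA, and was lost without SAMP8 water replicate 1 or 2 or SAMP8 TFQA replicate 3. Without SAMP8 water replicate 1 the count was 2, and without SAMP8 water replicate 2 or SAMP8 TFQA replicate 2 it was 3. Of the machinery of vesicle release 2 of 57 members were higher (3.51%) and 1 lower (1.75%), all of which stayed. This count moved with the arrays used, to 4 higher and 2 lower without SAMP8 TFQA replicate 2 and to 6 higher without SAMP8 water replicate 2 or SAMP8 TFQA replicate 1. Syn3, a synapsin, read 10.14, 10.24 and 10.47 after water and 10.49, 11.19 and 11.05 after TFQA. Rims4, a protein of the active zone, differed by 0.56 (SE 0.18), and Doc2b, a calcium sensor for spontaneous release, by -0.58 (SE 0.18). Of transmitter and peptide genes, Tph2, the enzyme of neuronal serotonin synthesis, differed by -0.68 (SE 0.24) and Rln3, a peptide of the relaxin family, by -0.62 (SE 0.17). Both stayed without SAMP8 TFQA replicate 2, Rln3 is dim, and Tph2 was lost without SAMP8 water replicate 2 or SAMP8 TFQA replicate 3.

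Of 12 listed neurotrophins and receptors, 9 were matched to a transcript with 1 gene symbol, and 1 of these was past the threshold. Bdnf, the brain-derived neurotrophic factor, read 10.55, 10.32 and 10.69 after water and 10.49, 9.61 and 9.99 after TFQA. The groups overlapped, and the difference was -0.49 (SE 0.25) with and -0.28 (SE 0.26) without replicate 2, which held the lowest value. Its receptor Ntrk2 read 14.58 to 14.79 after water and 14.68 to 14.93 after TFQA, a difference of 0.09 (SE 0.16). Ntf5, Ntrk3, Ngfr, Sort1, Sorcs2 and Sorcs3 differed by between -0.35 and 0.12, and none of these was past the threshold in either fit. Sorcs1, a sorting receptor of the same family as Sort1, read 8.07, 8.25 and 8.20 after water and 9.16, 9.35 and 8.37 after TFQA. The groups did not overlap, but without replicate 2 the difference of 0.79 (SE 0.26) was 0.59 (SE 0.27) and no longer past the threshold. Among 89 intermediates of neurotrophin signaling 3 were higher (3.37%, against 3.44% of all genes) and 2 lower (2.25%, against 3.72%). Without SAMP8 TFQA replicate 2, 5 were higher and 1 lower, against 3.55% and 3.79% of all named transcripts. Camk4, a kinase that activates CREB, read 9.45, 9.34 and 9.66 after water and 10.22, 10.29 and 10.06 after TFQA, a difference of 0.71 (SE 0.19), and Mapk9, a Jun kinase, differed by 0.46 (SE 0.16). Both stayed without replicate 2, while Mapk9 was lost without SAMP8 water replicate 2. Gapdh, often used as a reference gene, read 17.70 in all 3 water arrays and 17.51, 17.70 and 17.85 after TFQA.

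Cell type markers also differed between the groups, and in bulk tissue fewer cells of a type and less RNA per cell cannot be told apart. Choroid plexus markers lay above 0 in 2 of 26 members (7.69%, against 50.8% of all named transcripts), with 8 lower past the threshold (30.8%, against 3.72%) and a median of -0.40. Without SAMP8 TFQA replicate 2, 4 were lower and the median was -0.29, and 4 was also the count without SAMP8 water replicate 2 or SAMP8 TFQA replicate 3, against 5 without SAMP8 water replicate 1 and 10 without SAMP8 TFQA replicate 1. The 4 that stayed were Car12, a carbonic anhydrase, Trpv4, an osmosensing channel, F5, a coagulation factor, and Sostdc1, an inhibitor of BMP and Wnt. Car12 read 8.94, 9.33 and 8.58 after water and 8.06, 7.92 and 8.33 after TFQA, and Trpv4 read 6.36, 7.13 and 6.77 after water and 5.80, 5.95 and 6.01 after TFQA. The mean of the list was 0.26, 0.55 and 0.10 in the water arrays and 0.12, -0.36 and -0.10 in the TFQA arrays, so that TFQA replicate 1 lay above water replicate 3. Ependymal markers, of the ciliated cells beside it, lay below 0 in 11 of 14 members and 3 were lower (21.4%), with 1 lower without SAMP8 water replicate 2 and 2 without SAMP8 TFQA replicate 1 or 2. Pifo, a dim gene of a ciliary protein, read 5.98, 5.92 and 5.91 after water and 4.87, 5.22 and 5.12 after TFQA.

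Markers of neurons of the neocortex and of the hippocampus itself differed in both directions. Neocortical layer markers lay above 0 in 14 of 19 members, with 4 higher past the threshold (21.1%, against 3.44% of all genes) and a median of 0.36. Cux2, Mef2c and Scnn1a stayed and Rorb did not, and the median without SAMP8 TFQA replicate 2 was 0.18. The count of 4 was 2 without SAMP8 water replicate 1, 7 without SAMP8 TFQA replicate 1 and 9 without SAMP8 water replicate 2. The mean of the list was -0.23, -0.07 and -0.21 in the water arrays and -0.07, 0.38 and 0.17 in the TFQA arrays. Markers of CA pyramidal neurons lay below 0 in 19 of 23 and those of dentate granule neurons in 15 of 20 members, with medians of -0.26 and -0.19 and with -0.17 and -0.14 without replicate 2. In each list 3 were lower (13% and 15%, against 3.72% of all genes) and 1 higher. The 3 lower CA markers were 5 without SAMP8 TFQA replicate 1. The 3 lower dentate markers were 1 without SAMP8 water replicate 1 and 7 without SAMP8 water replicate 2. Of the CA list Spink8, Fibcd1 and, in the other direction, Cacng5 stayed, and of the dentate list Cabp7 and Stxbp6. Scnn1a and Stxbp6 were past the threshold in 3 and 2 of the 6 fits that leave out 1 SAMP8 array. Fibcd1, a lectin-like receptor that marks CA1, read 10.12, 9.87 and 10.09 after water and 9.37, 8.61 and 9.38 after TFQA. The part that the proportions of these regions in each sample played in the differences of single genes was not tested.

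Among other cells, markers of endothelial and mural cells were higher in 4 of 23 members (17.4%) and lower in 0. Over all genes 3.44% were higher and 3.72% lower. Without SAMP8 water replicate 1 or 2 the 4 were 1 and 2. Ly6c1, a surface protein of brain endothelium, read 10.68, 10.83 and 10.72 after water and 11.01, 11.38 and 11.56 after TFQA. Abcb1a, the efflux pump P-glycoprotein, read 9.72, 9.71 and 9.91 after water and 10.59, 10.10 and 10.51 after TFQA, a difference of 0.62 (SE 0.25). Both groups lay above the SAMR1 arrays, which read 6.37 to 7.48. Both genes stayed without SAMP8 TFQA replicate 2. Ly6c1 also stayed without each other SAMP8 array, while Abcb1a was lost without SAMP8 water replicate 1 or 2 or SAMP8 TFQA replicate 1 or 3. Of microglial and complement genes 2 of 21 were higher (9.52%) and 1 lower (4.76%). Tyrobp, the signaling adaptor of TREM2, differed by 0.50 (SE 0.19) and Lpl, a lipase induced in activated microglia and also made by neurons, by -0.76 (SE 0.26), and they were past the threshold in 3 and 4 of the 6 fits that leave out 1 SAMP8 array. Of 19 astrocyte markers 1 was lower, Serpina3n, a reactive marker that read 12.59, 12.03 and 12.50 after water and 11.89, 10.87 and 12.02 after TFQA, and 1 was higher, the dim gene Lcn2. Neither stayed. Oligodendrocyte and myelin genes had 0 of 20 past the threshold.

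Genes that respond to glucocorticoids, the adrenal stress hormones, were past the threshold in 10 of 30 members, with a median of 0.22. Of these, 7 were higher (23.3%, against 3.44% of all genes) and 3 lower (10.0%, against 3.72%). Without replicate 2, 6 were higher and 3 lower, 5 and 2 of them from the first count, and without SAMP8 water replicate 1 or 2 there were 4 higher members. The 3 lower ones were 0 without SAMP8 water replicate 1 and 1 without SAMP8 water replicate 3 or SAMP8 TFQA replicate 1. Besides Cdkn1a, the higher ones included Sult1a1, a sulfotransferase, Hif3a, a hypoxia-inducible factor, Tgfbr1, a TGF-beta receptor, and Arrdc2, of which Tgfbr1 was past the threshold in 3 and the dim gene Arrdc2 in 2 of the 6 fits that leave out 1 SAMP8 array. Sult1a1 read 6.48, 6.92 and 6.39 after water and 7.35, 7.03 and 7.97 after TFQA, a difference of 0.85 (SE 0.25), and Hif3a read 6.26, 5.84 and 6.13 after water and 6.94, 6.91 and 6.66 after TFQA, a difference of 0.76 (SE 0.24). In both genes the groups were separate. Dusp1, which this list shares with the immediate early genes, and Cebpd were lower and stayed. In the list of p53, senescence and apoptosis genes 3 of 43 were higher (6.98%) and 1 lower (2.33%), with a median of 0.04. Cdkn1a led it, and Bik, a proapoptotic protein, read 7.37, 7.42 and 7.40 after water and 6.64, 6.99 and 6.90 after TFQA.

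For inflammatory genes, the shares past the threshold are set against 3.44% higher and 3.72% lower of all genes. Tnf, the tumor necrosis factor, was among the dimmest transcripts and read 2.68, 2.71 and 2.47 after water and 3.11, 2.88 and 2.90 after TFQA. The groups did not overlap and the difference of 0.34 (SE 0.15) stayed without replicate 2, but it was lost when any 1 of the other 5 SAMP8 arrays was left out. Of 52 cytokine, TNF and NF-kB genes 2 were higher (3.85%) and 1 lower (1.92%), and without SAMP8 TFQA replicate 1 the lower ones were 4. The lower one was Il1a, a dim gene that differed by -0.51 (SE 0.19) and was past the threshold in 3 of the 6 fits that leave out 1 SAMP8 array. Of 41 chemokines and receptors 0 were higher and 3 lower (7.32%), against 1 lower without SAMP8 water replicate 1, and Ccl6, which read 6.93, 6.74 and 7.07 after water and 6.70, 6.06 and 6.15 after TFQA, stayed. In the interferon and MHC class I list 3 of 55 were lower (5.45%) and 1 higher (1.82%), and all 4 stayed. Without SAMP8 TFQA replicate 2, 6 were lower and 2 higher, and leaving out another SAMP8 array gave 2 lower (SAMP8 TFQA replicate 1) to 5 lower ones (SAMP8 water replicate 3 or SAMP8 TFQA replicate 3). Ifi27, an interferon-induced mitochondrial protein, read 9.98, 9.90 and 10.00 after water and 9.26, 9.01 and 9.32 after TFQA, a difference of -0.76 (SE 0.19). The SAMR1 arrays read 8.82 to 9.50. Psmb10, a subunit of the immunoproteasome, was the higher one, with 7.22, 6.95 and 7.08 after water and 7.71, 7.77 and 7.54 after TFQA, and the dim gene Oas2 differed by -0.51 and was lost without SAMP8 water replicate 2 or SAMP8 TFQA replicate 1.

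The other lists had at most 4 members past the threshold in either direction. Over all genes 3.44% were higher and 3.72% lower, and 50.8% lay above 0. Of 45 genes of collagens and extracellular matrix 0 were higher and 4 lower (8.89%, against 3.72% of all genes), among them Ccn1 and Col9a3, a collagen chain that differed by -0.40, and without SAMP8 TFQA replicate 2, 2 were lower and 1 higher. Circadian clock genes lay above 0 in 16 of 21 members (76.2%), and 1, Rorb, was higher, while without that array 11 lay above 0 and 0 were past the threshold. Of 31 semaphorins, plexins and neuropilins 2 were higher (6.45%, Sema3a and Plxnd1) and 1 was lower (3.23%, Plxna4, a plexin, at -0.49). The lists of 34 neuropeptides and 36 mTOR and AKT genes each had 2 higher and 1 lower, and that of 33 monoamine synapse genes 1 higher and 2 lower. Meningeal (29), hypothalamic and thalamic (21) and blood cell markers (7) had 1 lower each and 0 higher. Of 72 subunits of oxidative phosphorylation 2 were higher (2.78%) and 0 lower, and the median was 0.01. Of 37 NRF2 targets and antioxidant enzymes 1 was higher, and of 20 genes of cholesterol synthesis 1. In the Wnt list 1 of 57 was higher and 1 lower (1.75% each). Lrp5, a Wnt coreceptor, read 6.20, 5.86 and 5.84 after water and 6.80, 6.23 and 6.84 after TFQA. Of 43 genes of the cell cycle and of newborn neurons 1 was higher and 1 lower. Mki67, a proliferation marker, read 4.63, 4.06 and 4.80 after water and 5.04, 4.86 and 5.71 after TFQA, whereas Ccna2, a cyclin, differed by -0.48 (SE 0.20). Both are dim and stayed without SAMP8 TFQA replicate 2, but were past the threshold in 4 and 3 of the 6 fits that leave out 1 SAMP8 array. In the unfolded protein response and heat shock list 2 of 34 were higher and 2 lower, and Dnajb9, which helps fold proteins in the endoplasmic reticulum, differed by 0.51 (SE 0.17) and was lost without SAMP8 water replicate 1 or SAMP8 TFQA replicate 1. With 1 SAMP8 array left out, the counts of these other lists ran between 0 and 5 in either direction, the 5 being higher meningeal markers without SAMP8 water replicate 2.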

How the data were processed

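Total RNA from 9 samples was hybridized to Clariom S Mouse arrays. Per the paper, the authors normalized the arrays by SST-RMA in the Transcriptome Analysis Console. The submitters' processing notes name RMA and mm10 without versions. The deposited log2 values, 1 per transcript and array, had already been corrected for background, normalized between arrays and summarized over probes by the authors, and were used unfiltered. The number of arrays limits the precision, and the median standard error of a log2 difference was 0.190. Array medians lay between 6.76 and 6.81. The labels and the methods also differ in the amount of RNA labelled.

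Groups were fitted with limma 3.58.1 (lmFit and eBayes, default settings) in R 4.3.3, once on all 9 arrays and once on the 8 without SAMP8 TFQA replicate 2. Benjamini-Hochberg adjustment was made over 22206 transcripts. Symbols and positions came from the platform annotation and RefSeq (GRCm38.p6). A gene with several transcripts (55 genes) was given by the one with the highest mean. For 37 gene lists, counts and medians were taken without a set test. The fit was tested on simulated data before use.

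The comparison, the lists and the rule for naming genes were chosen with earlier results of these data known. The rule names the 15 largest differences per direction that stayed with groups that do not overlap, the 8 per direction that were lost, the 5 that were gained, neurotrophins and their receptors, Tnf, Gapdh and up to 4 members of each list with the smallest p. Not all of these are printed. Genes outside the rule, among them the further immediate early, striatal and potassium channel genes, Arrdc2, Cebpd, Gria1 and Lrrtm1, the hippocampal and progenitor markers and all genes in the closing section, were picked with their values in view. Other settings tried were a fit of the 6 SAMP8 arrays, a replicate block, trend and robust settings, one-way ANOVA without moderation, quantile normalization again, centring on the median, leaving out the 40% dimmest transcripts and leaving out each array.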

Additional observations from a re-analysis of the deposited data

How the results depend on the processing

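With 3 arrays per group, all calls rest on an unadjusted p, and limma called 0 transcripts at an adjusted p under 0.05 in every fit run. Without the 40% dimmest transcripts, 1029 transcripts were past the threshold in place of 1580. Of these, 568 were higher in place of 746 and 461 lower in place of 834. The named ones that stayed without SAMP8 TFQA replicate 2 went from 868 to 573. Among them the higher ones went from 397 to 309 and the lower ones from 471 to 264. Fewer transcripts were tested in this setting, and 52.7% of the lower against 32.4% of the higher named calls were that dim. With 1 further array left out in both fits, 572 to 839 stayed (lower, 280 to 445), and both 572 and 280 were counts without SAMP8 TFQA replicate 1. With 1 array left out, 1277 to 1840 transcripts were past the threshold. Required in all 6 fits that each leave out 1 SAMP8 array, 355 stayed, a criterion added after the data had been seen. Centring each array on its median moved the share of calls that were higher from 47.2% to 56.8%.

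The replicate numbers were not treated as pairs in the main fit. Correlations of deviations between TFQA and water arrays of SAMP8 were 6.1e-05 to 0.088 with the same number. With different numbers they were -0.087 to 0.030. Whether same-numbered samples shared a step of the work was not tested. With a replicate block, 1758 were past the threshold and 813 named transcripts stayed. Over 127 genes and their alternatives, 1781 of 2006 values kept direction and call, 183 lost and 33 gained the threshold, and 9 turned direction. Many of these genes were named because they passed the threshold or had a small p, so agreement is in part built in. Of all 1401 named calls, 55.9% to 67.3% stayed when 1 SAMP8 array was left out. With 1 array left out, the log2 difference of Tmem181a ran from -1.84 to 0.23 (without SAMP8 TFQA replicate 3), that of Ppp1r1b from -0.053 (without SAMP8 TFQA replicate 2) to 1.91, that of Ntrk3 from -0.39 to 0.062, that of Sorcs2 from -0.16 to 0.14 and that of Gapdh from -0.095 to 0.075. With centring, Sorcs2 and Gapdh were at 0.01 each. The causes were not tested.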

Other observations

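In SAMP8 TFQA replicate 3, 7 neighboring transcripts on chromosome 17 (6256726 to 6655965 of GRCm38.p6) lay more than 1 log2 unit below all other 8 arrays, namely Tmem181a, Tmem181b-ps, Tmem181c-ps, Dynlt1a, Dynlt1b, Dynlt1c and Dynlt1f. They are near-identical copies of 2 gene families, so that a probe of 1 copy can also read the others, and they are not 7 separate results. Tmem181b-ps read 15.29, 15.25 and 10.93 in the TFQA arrays, 14.84 to 15.11 in SAMP8 water and 15.73 to 16.12 in SAMR1. Dynlt1f read 11.34, 11.71 and 10.03 after TFQA. The flanking genes Tulp4 and Sytl3 read 10.60, 10.68 and 10.74 and 4.82, 4.71 and 4.93 in the same arrays. In that array alone the block was low, and a difference between the groups is not shown by it.

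SAMP8 water replicate 3 lay more than 1 log2 unit above all other arrays in Gh, Prl and Cga, which encode pituitary hormones, and in 3 further transcripts. Gh read 4.61, 4.99 and 11.31 in the SAMP8 water arrays and 4.80, 4.85 and 7.44 in the TFQA arrays, and Prl read 4.57, 4.79 and 6.87 and 4.18, 4.69 and 4.53.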
